A study of Mus musculus with 6 samples.

Results

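The genes described here are the chemokine ligands and receptors of the mouse, in ovarian RNA of females of high and of low litter size. They were taken from the deposited table by symbol, as protein-coding genes named Ccl, Cxcl, Ccr or Cxcr with a number, together with Cx3cl1, Cx3cr1, Xcl1, Xcr1 and Ackr1 to Ackr4. This gave 67 of the 36727 rows, made up of 44 ligands and 23 receptors. Of these rows, 60 lie on assembled chromosomes and 7 are copies of Ccl19, Ccl21 and Ccl27 genes on separate scaffolds. All 6 libraries came from F4 inbred Swiss albino females aged 135 to 140 days, from ovarian tissue that the labels call estrous-phased. High litter size was represented by replicates 1, 3 and 4 and low litter size by replicates 1, 2 and 5, and per-library values are listed in that order throughout. Litter size was the only labelled difference. The labels do not say whether the libraries came from separate animals or from pools, so the p-values below rest on variation among these libraries, and that variation may be technical.

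Chemokines are small secreted proteins that direct the movement of leukocytes along gradients, and they are named for the spacing of their first cysteines (CC, CXC, CX3C or a single C). Their receptors are G protein-coupled receptors of leukocytes, while the atypical receptors bind chemokines without G protein signalling and clear or transport them. In the ovary, chemokines are known for drawing macrophages, neutrophils and eosinophils into the tissue with the phases of the cycle, at ovulation and when the corpus luteum regresses.

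Total estimated counts ran from 17620903 to 24758222 per library, and the chemokine rows held 0.112 to 0.177% of them. Levels are given as CPM, the count scaled to a library total normalized by the TMM method, and levels of different genes are compared only as CPM per kb of annotated exon. The libraries differed in the ovarian markers they showed. Markers of luteal and steroidogenic cells summed to 254, 379 and 11160 CPM at high litter size and 903, 174 and 3727 CPM at low litter size. Oocyte markers summed to 2.05, 4.0 and 79.9 CPM at high litter size and 17.3, 5.12 and 49.6 CPM at low litter size. High replicates 1 and 3 and low replicate 2 were lowest in both sums. No marker of either list was at 0 in all 6 libraries. Among these 3 libraries, however, the oocyte markers Zp2 and Zp3 were at 0 in high replicate 1 and low replicate 2, and Figla in each. With these 3 libraries removed, 1 high library is set against a pair of low ones and is assumed to vary as they do.

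Counts were present in at least 1 library for 63 of the 67 rows, and 45 passed the filter on low counts and were tested. None of the 45 passed (edgeR quasi-likelihood test, 0 with adjusted p under 0.05, lowest adjusted p = 0.141), where 0.00608% of all 16455 tested genes did. At an unadjusted p under 0.05, 11 members (24.4%) were counted against 14.4% of all tested genes, 4 of them with higher values at high litter size (6.56% of all genes) and 7 with lower values (7.82%). The 3 high libraries and the 3 low libraries did not overlap for 9 members, where 19.5% of all tested genes had separate groups. In 7 of the 9 (15.6% of the members, against 10.8% of all genes) every high library was lower, and in 2 (4.44%, against 8.75%) every high library was higher. DESeq2 on the same counts called 4 members (8.89%, against 6.24% of all genes), 3 lower (6.67%, against 4.08%) and 1 higher (2.22%, against 2.15%). The likelihood ratio test of edgeR called the 3 lower members, and limma voom called 0. The log2 fold change, high minus low litter size, was above 0 for 28 members and for 55.3% of all tested genes, and below 0 for 17 members and for 44.7% of all. Its median was 0.33 over the members and 0.07 over all tested genes.

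**Figure D1:**
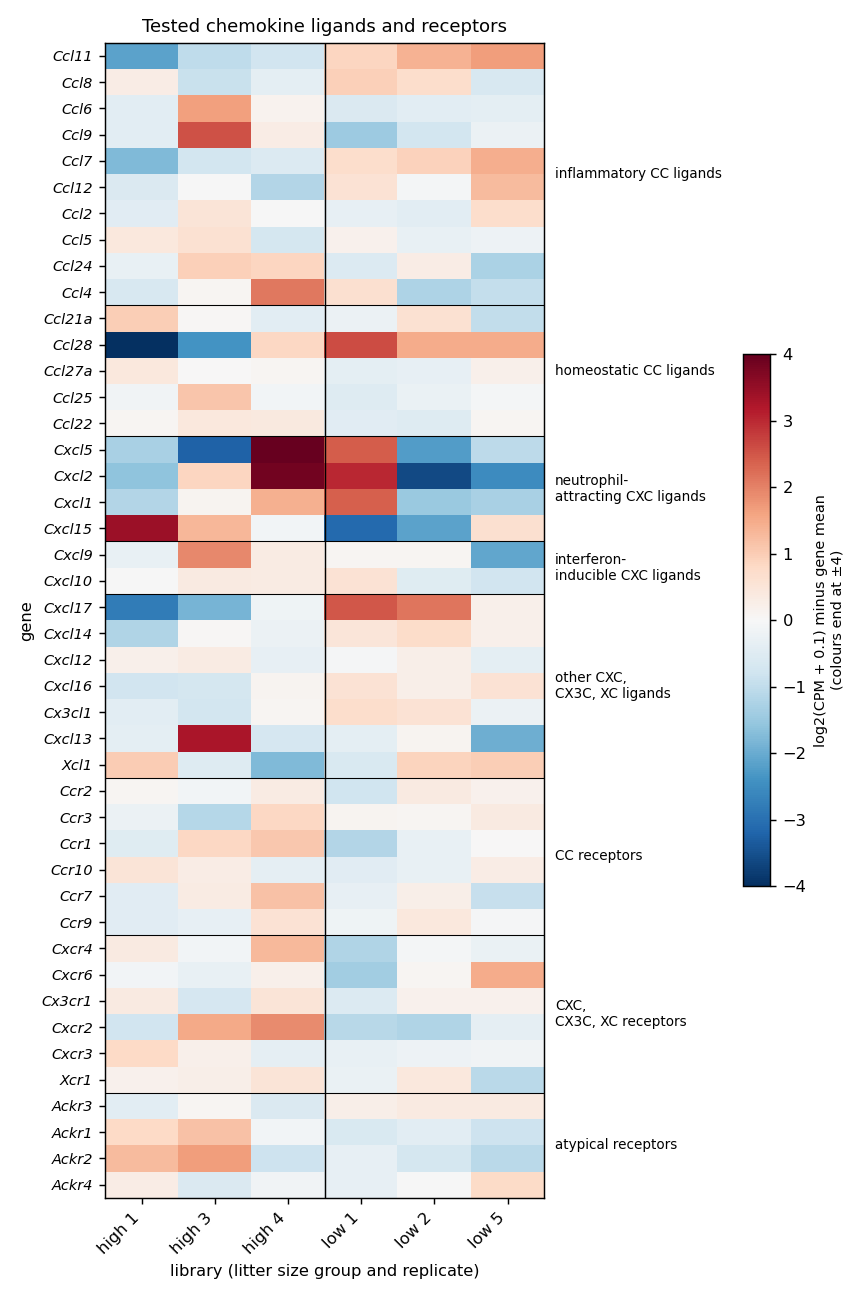
Heat map of 44 tested members (down the page, grouped by role) in the 6 libraries (across, high litter size left of low), as log2(CPM + 0.1) minus the mean of the gene. Ccl11, Ccl28 and Cxcl17 are below their mean in most high and above it in all low libraries, whereas Cxcl5 and Cxcl2 stand out in high replicate 4 and Cxcl13 and Ccl9 in high replicate 3.

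The most abundant chemokine messages per kb were ligands. On average over the 6 libraries, 12 members exceeded 10 CPM per kb, of which 11 were ligands and 1 was a receptor, Ackr3. Ccl21a, a ligand of Ccr7 made by lymphatic endothelium and lymphoid stroma, had the highest mean with 161 CPM per kb. The mucosal chemokine Cxcl17 averaged 137 CPM per kb, the eotaxin Ccl11 88.1, Ccl8 58.4 and Ccl6 51.4. The leading gene differed between libraries. Ccl21a led in high replicates 1 and 3 with 290 and 149 CPM per kb, and Cxcl5 led in high replicate 4 with 129. Cxcl17 led in low replicates 1 and 2 with 367 and 292 CPM per kb, and Ccl11 led in low replicate 5 with 189.

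Among the inflammatory CC ligands, 10 of 14 were tested, and the eotaxin Ccl11 had the lowest adjusted p of all members. Ccl11 attracts eosinophils through Ccr3. Its level reached 14.4, 31.7 and 37.7 CPM at high litter size, against 116, 167 and 205 CPM at low litter size. Every high library was below every low library, with means of 27.9 ± 12.1 CPM at high and 163 ± 44.4 CPM at low litter size (SD, n = 3 each). The comparison gave a log2 fold change of -2.54, SE 0.42, edgeR adjusted p = 0.141, while DESeq2 called the gene lower (DESeq2 adjusted p = 3.4e-06). The log2 fold change lay between -2.86 and -2.24 when 1 library was removed at a time, and it was -2.12 without the 3 libraries of lowest ovarian markers. Ccl7, a ligand of Ccr2 and other receptors that attracts monocytes, stood at 1.58, 3.31 and 3.77 CPM for high litter size and at 9.30, 10.6 and 15.4 CPM for low litter size. The groups were separate for Ccl7 too (log2 fold change -2.03, SE 0.44, edgeR adjusted p = 0.182, DESeq2 adjusted p = 0.000752), and the log2 fold change was -1.75 without those 3 libraries.

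Both genes lie in a group of CC ligand genes (GRCm38, GENCODE M21), with Ccl7 at chromosome 11, 82045712 to 82047525, and Ccl11 at chromosome 11, 82057823 to 82062955. Ccl2, the monocyte attractant that binds Ccr2, lies beside Ccl7 at chromosome 11, 82035571 to 82037453. Ccl2 measured 2.45, 4.93 and 3.37 CPM at high litter size and 2.66, 2.51 and 5.61 CPM at low litter size, with overlapping groups (log2 fold change -0.007, SE 0.49, edgeR adjusted p = 0.996). On the other side, Ccl12, a mouse ligand of Ccr2, had a log2 fold change of -1.23 and Ccl8, which binds Ccr8 in mice, -0.73. The median over the 5 tested genes of this group was -1.23. Further along the same chromosome a group runs from Ccl5 at 83525778 to Ccl4 at 83664683. Its 4 tested genes had log2 fold changes above 0, as 55.3% of all tested genes did, with a median of 1.29. The log2 fold change of Ccl4 was -0.005 without high replicate 4, and that of Ccl5 was 0.071 without high replicate 3. Both groups, and the genes Ccl12, Ccl8, Ccl9, Ccl6 and Ccl4 in them, were singled out by position after their values were seen.

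**Figure D2:**
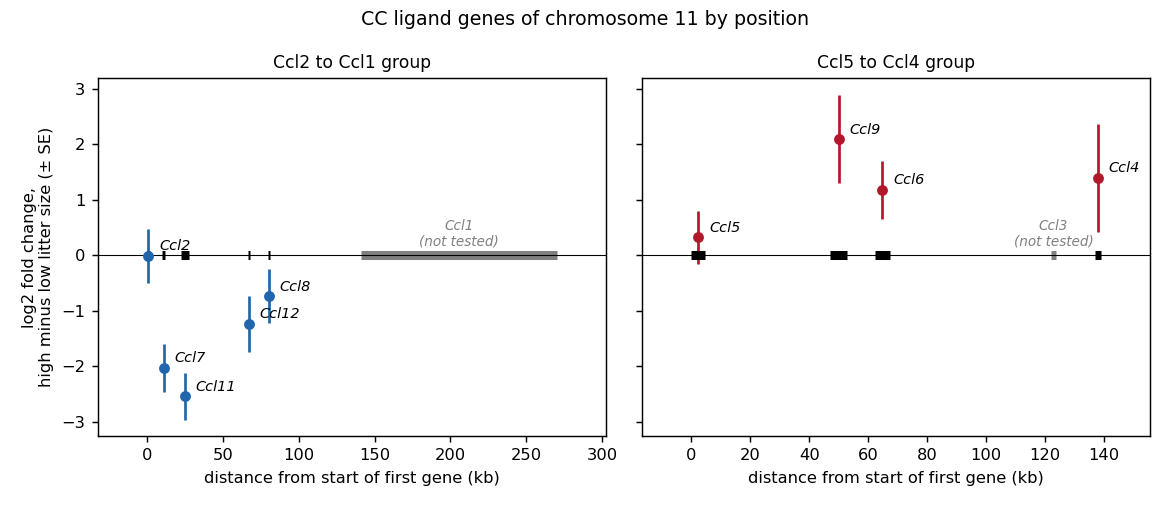
Log2 fold changes, high minus low litter size (points, with bars of 1 SE), of the CC ligand genes in the 2 groups on chromosome 11, placed by distance in kb from the start of the first gene of each group. The tested genes from Ccl2 to Ccl8 lie at or below 0 and those from Ccl5 to Ccl4 above 0.

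In the second of these groups, high replicate 3 stood apart for Ccl9 and Ccl6, ligands of Ccr1 that attract myeloid cells in mice. Ccl9 reached 23.7, 184 and 38.9 CPM at high litter size, against 11.5, 19.1 and 26.9 CPM at low litter size. Ccl6 stood at 57.6, 242 and 85.6 CPM for high litter size and at 51.8, 58.2 and 59.1 CPM for low litter size. The groups overlapped for both genes. Ccl9 gave a log2 fold change of 2.10, SE 0.80, edgeR adjusted p = 0.324, and its log2 fold change was 0.70 without high replicate 3. Ccl6 gave a log2 fold change of 1.19, SE 0.52, edgeR adjusted p = 0.366, and 0.34 without the same library. Beside them, adipocyte markers summed to 3953, 28500 and 2960 CPM at high litter size and 465, 4392 and 1519 CPM at low litter size, and macrophage markers to 1453, 2065 and 1291 CPM at high litter size and 1306, 1610 and 1134 CPM at low litter size. High replicate 3 was highest in both sums, and their part in the Ccl9 and Ccl6 values was not tested.

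Ccl5, made by T and NK cells, measured 3.58, 4.06 and 1.56 CPM at high litter size and 2.95, 2.13 and 2.26 CPM at low litter size, and the groups overlapped (log2 fold change 0.32, SE 0.47, edgeR adjusted p = 0.796). Ccl3 and Ccl4, CC ligands of activated macrophages, were highest in high replicate 4, at 2.11 and 3.67 CPM. Ccl24, an eotaxin that shares the receptor of Ccl11, reached 2.05, 5.06 and 4.68 CPM at high litter size, against 1.73, 3.15 and 1.01 CPM at low litter size, with overlapping groups. Ccl20, an epithelial ligand of Ccr6, had 1, 0 and 3 counts at high litter size and 23, 1 and 1 at low litter size and was not tested. Ccl1 and Ccl26 had at most 2 counts in any library.

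Of the homeostatic CC ligands, which guide lymphocytes in tissues at rest, 5 of 14 rows were tested. Ccl28, a ligand of Ccr10 and Ccr3 made by mucosal epithelium (chromosome 13, 119623819 to 119654359), stood at 4.75, 14.7 and 139 CPM for high litter size and at 471, 217 and 219 CPM for low litter size. All high libraries were below all low libraries, yet the high libraries spanned 29.2-fold among themselves, with high replicate 4 nearest the low ones. The comparison gave a log2 fold change of -2.52, SE 1.18, edgeR adjusted p = 0.39, and DESeq2 did not call the gene (DESeq2 adjusted p = 0.124). The log2 fold change was -4.99 without high replicate 4 and -1.34 without the 3 libraries of lowest ovarian markers. Ccl21a (chromosome 4, 42772860 to 42773993) measured 252, 130 and 94.0 CPM at high litter size and 108, 191 and 63.8 CPM at low litter size, with overlapping groups (log2 fold change 0.39, SE 0.51, edgeR adjusted p = 0.769). Ccl19, the other ligand of Ccr7, had 2, 11 and 6 counts at high litter size and 5, 11 and 6 at low litter size and was not tested. The remaining tested ligands were Ccl25, Ccl27a and Ccl22, which bind Ccr9, Ccr10 and Ccr4, with log2 fold changes of 0.70, 0.34 and 0.65.

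The scaffold copies of Ccl21 and Ccl27 genes are near-identical to chromosomal genes, so how reads were divided among them is uncertain. Of the 7 copies, 4 had no counts. A Ccl21b copy had 80 counts in high replicate 3 and 96 in low replicate 2, and 0 in the other 4 libraries. A Ccl27 copy had 7, 11 and 10 counts at high litter size and 0 in each low library, and another had 5 counts in low replicate 2 alone. None of these copies was tested. Ccl27a on chromosome 4 had 133, 81 and 105 counts at high litter size and 66, 75 and 147 at low litter size.

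Cxcl1, Cxcl2, Cxcl3 and Cxcl5 call neutrophils through Cxcr2, and Cxcl15 is known from mouse lung epithelium. All 5 genes lie together on chromosome 5, from Cxcl5 at 90759360 to Cxcl2 at 90905938. Of the 5, all but Cxcl5 matched the promoter table. The 150 bases before the RefSeq start of these 4 are printed because Cxcl1, Cxcl2 and Cxcl3, like Cxcl5, were highest in the same pair of libraries and Cxcl15 was not. The sequences are from RefSeq (GRCm38.p6, plus strand), and capitals mark GGGAATTTCCC, the longest run of letters that the first 3 windows share on either strand, which has the form of a site for NF-kappa-B.
Cxcl1, chr5:90891095-90891244: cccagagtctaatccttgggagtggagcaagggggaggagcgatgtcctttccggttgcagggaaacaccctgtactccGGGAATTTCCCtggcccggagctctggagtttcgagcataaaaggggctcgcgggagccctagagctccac
Cxcl2, chr5:90903749-90903898: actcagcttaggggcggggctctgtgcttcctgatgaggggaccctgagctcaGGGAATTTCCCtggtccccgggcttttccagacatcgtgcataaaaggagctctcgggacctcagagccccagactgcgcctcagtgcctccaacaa
Cxcl3, chr5:90785951-90786100: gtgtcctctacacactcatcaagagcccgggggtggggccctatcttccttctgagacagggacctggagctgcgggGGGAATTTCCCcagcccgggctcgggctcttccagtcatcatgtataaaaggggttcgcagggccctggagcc
Cxcl15, chr5:90794384-90794533: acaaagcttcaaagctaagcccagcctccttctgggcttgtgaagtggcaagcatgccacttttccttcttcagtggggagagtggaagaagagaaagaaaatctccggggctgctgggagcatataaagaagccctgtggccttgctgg

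The run of 11 letters began 71 bases before the RefSeq start of Cxcl1, 97 before that of Cxcl2 and 73 before that of Cxcl3, and it was not in the window of Cxcl15. Counted from the GENCODE starts used for the other positions, the distances were 67, 69 and 75 bases in the same order of genes, and the Cxcl1 and Cxcl2 windows run past those starts. The run occurred in 10 of the 32817 promoter windows of this length (0.0305%, both strands). A promoter was present for 46 of the 60 members on chromosomes, and 3 of these held the run. It was picked from these sequences, so the match describes letters only and shows no binding.

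Cxcl5 reached 2.20, 0.499 and 240 CPM at high litter size, against 30.2, 1.12 and 2.65 CPM at low litter size. Cxcl3 stood at 0.0511, 0.0624 and 41.5 CPM for high litter size and at 1.10, 0.160 and 0.0780 CPM for low litter size. Cxcl2 measured 0.307, 2.12 and 17.8 CPM at high litter size and 9.76, 0 and 0.117 CPM at low litter size. High replicate 4 was highest and low replicate 1 second for all 3 genes. Cxcl1 was high in the same pair of libraries and reached 0.818, 2.12 and 5.38 CPM at high litter size, against 10.8, 0.640 and 0.741 CPM at low litter size. The groups overlapped for each of these genes. Cxcl5 gave a log2 fold change of 2.84, SE 2.18, edgeR adjusted p = 0.597, and its log2 fold change was -3.06 without high replicate 4. Cxcl1 gave a log2 fold change of -0.54, SE 1.23, edgeR adjusted p = 0.871, and 1.99 without low replicate 1. Cxcl3 did not pass the filter on low counts. Cxcl15 had another order and stood at 14.5, 3.31 and 1.16 CPM for high litter size and at 0.0578, 0.213 and 2.03 CPM for low litter size (log2 fold change 3.0, SE 1.39, edgeR adjusted p = 0.387), with high replicate 1 highest. Its log2 fold change was 1.46 without high replicate 1, 5.46 without low replicate 5 and 0.09 without the 3 libraries of lowest ovarian markers. Cxcl2, Cxcl3 and Cxcl15 were singled out as neighbours of Cxcl1 and Cxcl5 after their values were seen. Ppbp, a chemokine ligand without a Cxcl symbol, measured 0.307, 11.3 and 93.4 CPM at high litter size and 0.1155, 0.373 and 0.312 CPM at low litter size. It was highest in high replicate 4 but lowest in low replicate 1. Ppbp did not pass the filter on low counts, and it too was singled out after its values were seen.

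**Figure D3:**
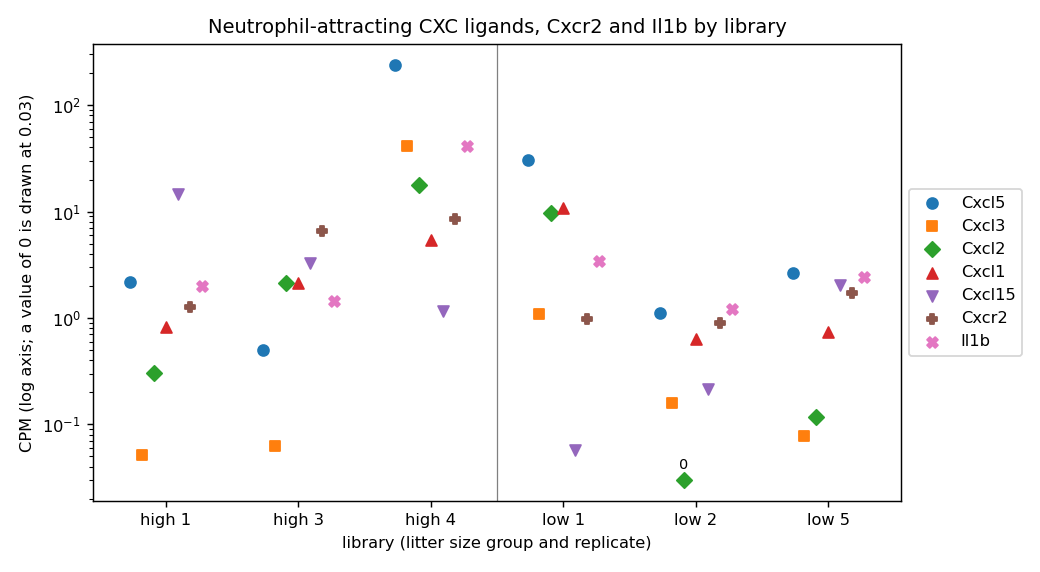
Levels of the 5 neutrophil-attracting CXC ligands and related genes in each library (CPM on a log axis, 1 point per gene and library, high litter size left of low). Cxcl5, Cxcl3 and Cxcl2 are highest in high replicate 4 and second in low replicate 1, whereas Cxcl15 is highest in high replicate 1.

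High replicate 4 also had the highest level of Il1b, a cytokine that induces these ligands. Il1b measured 1.99, 1.44 and 41.7 CPM at high litter size and 3.47, 1.23 and 2.42 CPM at low litter size. The inducers Il1a and Tnf were highest in low replicate 1 and second in high replicate 4. Il1a stood at 0.46, 0.624 and 10.7 CPM for high litter size and at 22.3, 1.33 and 0.82 CPM for low litter size. Tnf stood at 0.409, 0.25 and 3.12 CPM for high litter size and at 3.64, 0.693 and 1.05 CPM for low litter size. Il1b, Il1a and Tnf were singled out after their values were seen, and their part in the ligand levels was not tested. The luteal and steroidogenic sum given above was highest in high replicate 4 too. Neutrophil markers summed to 127, 1036 and 4979 CPM at high litter size and 19360, 7209 and 4206 CPM at low litter size, most of it from Ltf, lactoferrin, which uterine epithelium also makes. Ltf alone reached 89.1, 813 and 3684 CPM at high litter size, against 14150, 4676 and 3186 CPM at low litter size. The 2 neutrophil markers of smallest p were S100a8 and S100a9, with log2 fold changes of 5.64 and 5.55. S100a9 stood at 1.02, 56.8 and 57.2 CPM for high litter size and at 0.924, 0.320 and 1.17 CPM for low litter size. Of the 9 tested neutrophil markers, 4 had log2 fold changes above 0 and 5 below 0. Those below 0 were Lcn2 at -2.80, Ltf at -2.26, Ly6g at -1.135, Mpo at -0.72 and Retnlg at -0.11. The part of neutrophils in the ligand levels was not tested.

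Of 44 tested members with counts in every library, 6 (13.6%) had a highest library more than 10 times the lowest of the same group, against 6.23% of the 16171 tested genes with counts in every library. The 6 were Cxcl5, Cxcl15, Ccl28, Cxcl1, Cxcl13 and Xcl1. The larger of the within-group ratios had a median of 2.68 over these members and 2.01 over all such genes.

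Cxcl9 and Cxcl10, interferon-inducible ligands that attract T and NK cells through Cxcr3, were both tested. Cxcl9 measured 6.70, 31.5 and 10.4 CPM at high litter size and 8.78, 8.69 and 1.91 CPM at low litter size, with high replicate 3 highest and overlapping groups (log2 fold change 1.33, SE 0.77, edgeR adjusted p = 0.482). Its log2 fold change was 0.41 without that library. Cxcl10 reached 1.99, 2.62 and 2.56 CPM at high litter size, against 3.12, 1.44 and 1.17 CPM at low litter size, and its groups overlapped as well (log2 fold change 0.33, SE 0.50, edgeR adjusted p = 0.804).

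All 7 of the other ligands were tested, and 3 of them were lower in every high library than in any low library, where 10.8% of all tested genes were. Cxcl17, a chemokine of mucosal surfaces (chromosome 7, 25400053 to 25412886), stood at 7.16, 13.9 and 44.8 CPM for high litter size and at 279, 222 and 57.8 CPM for low litter size. The means were 21.9 ± 20.1 CPM at high and 186 ± 115 CPM at low litter size (SD, n = 3 each), and high replicate 4 came closest to low replicate 5. The comparison gave a log2 fold change of -3.09, SE 0.86, edgeR adjusted p = 0.229, while DESeq2 called the gene lower (DESeq2 adjusted p = 0.0035). With 1 library removed at a time the log2 fold change lay between -4.18 and -2.66, and it was -1.94 without the 3 libraries of lowest ovarian markers. Cxcl14, a ligand of epithelia and stroma (chromosome 13, 56288643 to 56296551), measured 27.1, 64.6 and 53.3 CPM at high litter size and 87.8, 104 and 71.5 CPM at low litter size (log2 fold change -0.86, SE 0.34, edgeR adjusted p = 0.335). Cxcl16, a membrane-anchored ligand of Cxcr6 (chromosome 11, 70453983 to 70459984), reached 28.2, 29.3 and 52.4 CPM at high litter size, against 71.1, 56.0 and 71.6 CPM at low litter size (log2 fold change -0.86, SE 0.29, edgeR adjusted p = 0.297). For both genes the gap between the nearest high and low library was smaller than the range of the high libraries.

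**Figure D4:**
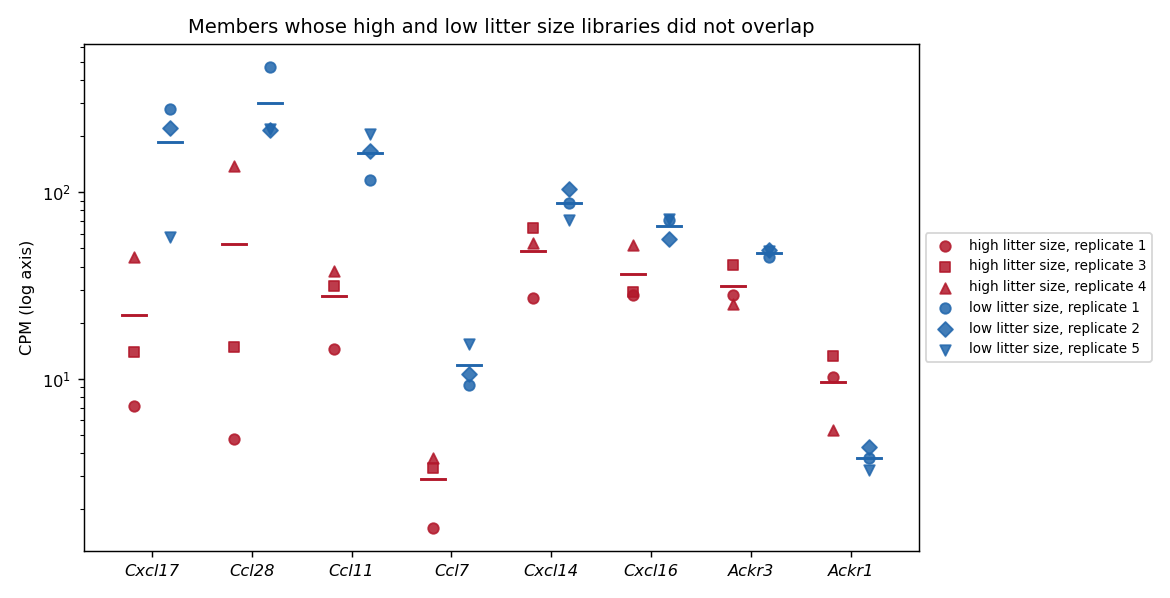
Levels of 8 tested members whose groups did not overlap (CPM on a log axis, points are libraries, high litter size left of low). Ackr1 lies higher and the other 7 genes lower in all 3 high libraries, and high replicate 4 is the high library nearest the low ones for Cxcl17, Ccl28, Ccl11, Ccl7 and Cxcl16.

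Ccl28 and Cxcl17 are known as products of mucosal epithelium. Markers of simple epithelium summed to 616, 568 and 987 CPM at high litter size and 4588, 2840 and 2070 CPM at low litter size. All 10 were tested, and 7 were lower in every high library (10.8% of all tested genes were). Of the 10, edgeR called 0, 7 were lower at an unadjusted p under 0.05 (7.82% of all) and DESeq2 called 7 lower (4.08% of all). Their median log2 fold change was -2.07, with Cldn4 at 0.13 and Msx1 at -0.10 nearest 0. The 2 of smallest p were the keratin Krt8, at -2.47, and the tight junction gene Cldn7, at -2.32, and none of the 10 was at 0 in every library. The part of epithelial content in the ligand values was not tested, and in whole tissue fewer cells of a type and less RNA per cell cannot be told apart. Stratified epithelium markers summed to 190, 108 and 793 CPM at high litter size and 25.2, 24.4 and 12.7 CPM at low litter size, with log2 fold changes of 3.76 for Trp63 and 5.94 for Krt15.

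Cxcl12, which retains Cxcr4-bearing cells in tissues (chromosome 6, 117168535 to 117181367), stood at 315, 343 and 218 CPM for high litter size and at 263, 320 and 208 CPM for low litter size, with overlapping groups (log2 fold change 0.15, SE 0.28, edgeR adjusted p = 0.847). Its receptor Cxcr4 measured 11.4, 8.18 and 22.0 CPM at high litter size and 3.76, 8.32 and 7.29 CPM at low litter size. High replicate 3 lay just below low replicate 2, and the other two high libraries were above all low ones (log2 fold change 1.10, SE 0.49, edgeR adjusted p = 0.368). Ackr3, the scavenging receptor of Cxcl12 (chromosome 1, 90203980 to 90216751), reached 28.3, 40.6 and 25.3 CPM at high litter size, against 44.9, 48.9 and 48.5 CPM at low litter size. The groups were separate and the low libraries were close to each other (log2 fold change -0.60, SE 0.23, edgeR adjusted p = 0.324, DESeq2 adjusted p = 0.197).

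Cx3cl1, the membrane-bound fractalkine of endothelium and epithelium, stood at 18.7, 15.1 and 26.3 CPM for high litter size and at 41.0, 37.3 and 21.4 CPM for low litter size. High replicate 4 exceeded low replicate 5, and the other high libraries were below all low ones (log2 fold change -0.73, SE 0.33, edgeR adjusted p = 0.377). Its receptor Cx3cr1, of monocytes and macrophages, measured 12.5, 6.12 and 14.0 CPM at high litter size and 6.76, 11.1 and 11.1 CPM at low litter size, with overlapping groups. Cxcl13, the B cell attractant, reached 2.61, 34.2 and 2.11 CPM at high litter size, against 2.60, 3.68 and 0.819 CPM at low litter size, so that high replicate 3 stood alone. Its log2 fold change of 2.45 (SE 1.20, edgeR adjusted p = 0.409) was 0.004 without high replicate 3. Cxcr5, the receptor of Cxcl13, had 0, 12 and 7 counts at high litter size and 3, 5 and 9 at low litter size and was not tested. Xcl1, a ligand of NK and T cells, had a log2 fold change of -0.66, which was -1.99 without high replicate 1 and -0.18 without high replicate 4. Its receptor Xcr1, of dendritic cells, had 0.52.

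**Figure D5:**
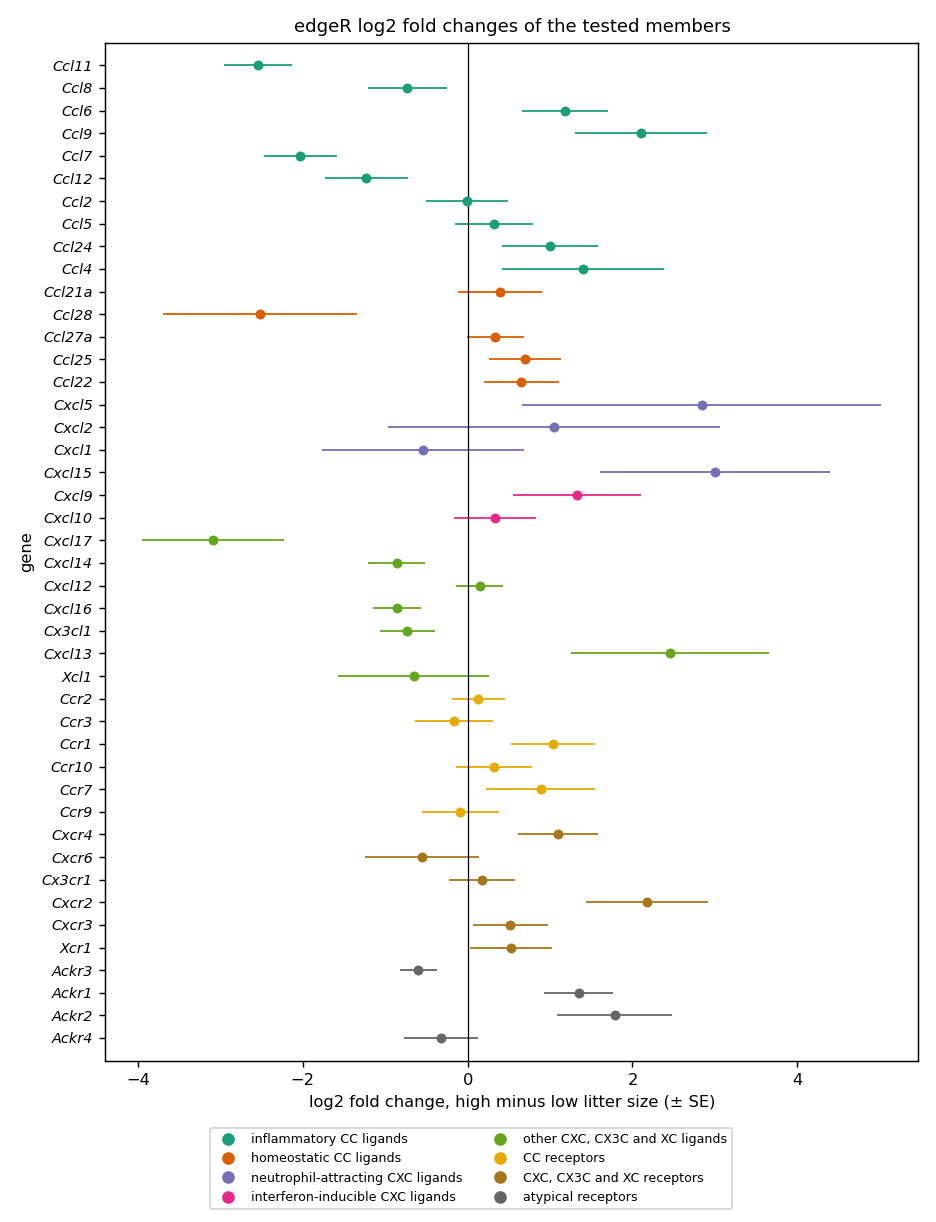
Log2 fold changes, high minus low litter size, of 44 tested members (points, coloured by role, with bars of 1 SE from edgeR). The values run from -3.09 for Cxcl17 to 3.0 for Cxcl15, and no member of the 45 tested passed at an adjusted p under 0.05.

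Among the CC receptors 7 of 11 were tested, with a median log2 fold change of 0.32. Ccr2, the monocyte receptor for Ccl2, Ccl7 and Ccl12, was the most abundant of them per kb. It stood at 59.9, 52.9 and 71.5 CPM for high litter size and at 32.6, 72.5 and 63.5 CPM for low litter size, with overlapping groups (log2 fold change 0.13, SE 0.32, edgeR adjusted p = 0.885). Ccr3, the eosinophil receptor for Ccl11, Ccl24 and Ccl28, measured 12.9, 6.93 and 26.9 CPM at high litter size and 16.6, 16.1 and 19.6 CPM at low litter size. High replicates 1 and 3 were below all low libraries and high replicate 4 was above them (log2 fold change -0.16, SE 0.48, edgeR adjusted p = 0.902), and the log2 fold change was -0.84 without high replicate 4. Eosinophil and mast cell markers summed to 169, 77.9 and 70.6 CPM at high litter size and 68.5, 66.9 and 59.5 CPM at low litter size. The sum includes the mast cell markers Kit, at 58.2 CPM, and Cpa3, at 37.0 CPM, in high replicate 1, so it is no measure of eosinophils. The eosinophil granule genes Epx, Prg2 and Ear1 were below 4 CPM in every library, and Ear2 reached 5.18 CPM in high replicate 3. The eosinophil genes Siglecf and Il5ra had log2 fold changes of 0.66 and -1.17. Ccr10, the other receptor of Ccl28, reached 2.51, 2.12 and 1.31 CPM at high litter size, against 1.21, 1.39 and 2.14 CPM at low litter size, with overlapping groups. Ccr7, the receptor of Ccl19 and Ccl21a, stood at 0.358, 0.687 and 1.31 CPM for high litter size and at 0.404, 0.640 and 0.234 CPM for low litter size, and these overlapped too. Ccr6 had 4, 4 and 6 counts at high litter size and 3, 9 and 4 at low litter size and was not tested. Ccr1, the receptor of Ccl6 and Ccl9, had a log2 fold change of 1.03.

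Of the CXC, CX3C and XC receptors, 6 of 8 were tested and 5 had log2 fold changes above 0. Cxcr2, the neutrophil receptor for Cxcl1, Cxcl2, Cxcl3 and Cxcl5, measured 1.28, 6.56 and 8.55 CPM at high litter size and 0.982, 0.906 and 1.72 CPM at low litter size. High replicates 3 and 4 were above all low libraries and high replicate 1 lay among them (log2 fold change 2.17, SE 0.74, edgeR adjusted p = 0.296, DESeq2 adjusted p = 0.0566). Low replicate 1, second highest in Cxcl5, was thus not high in Cxcr2, whereas high replicate 3, lowest in Cxcl5, was. Cxcr3, the receptor of Cxcl9 and Cxcl10, reached 3.07, 2.0 and 1.31 CPM at high litter size, against 1.39, 1.49 and 1.56 CPM at low litter size, with overlapping groups. Cxcr6, the receptor of Cxcl16, was highest in low replicate 5 at 17.0 CPM, with a log2 fold change of -0.55.

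All 4 atypical receptors were tested. Ackr1, which carries chemokines across the endothelium of venules (chromosome 1, 173331886 to 173333750), stood at 10.3, 13.2 and 5.33 CPM for high litter size and at 3.76, 4.32 and 3.24 CPM for low litter size. The groups were separate, and DESeq2 called the gene higher (log2 fold change 1.35, SE 0.41, edgeR adjusted p = 0.261, DESeq2 adjusted p = 0.0382). The log2 fold change was 0.58 without the 3 libraries of lowest ovarian markers. Ackr2, which degrades inflammatory CC chemokines and is found on lymphatic endothelium, measured 5.27, 7.12 and 1.16 CPM at high litter size and 1.68, 1.28 and 0.974 CPM at low litter size. High replicate 4 lay among the low libraries, and the log2 fold change of 1.78 (SE 0.69, edgeR adjusted p = 0.328) was -0.22 without the same 3 libraries. Ackr4, which clears Ccl19, Ccl21 and Ccl25, had a log2 fold change of -0.33. Endothelial markers summed to 1425, 1370 and 693 CPM at high litter size and 546, 745 and 738 CPM at low litter size. All 13 had log2 fold changes above 0, with a median of 0.72 and with Esam at 1.12 and Cdh5 at 1.13. High replicates 1 and 3 were the highest libraries for Ackr1, Ackr2 and the endothelial sum alike. The lymphatic genes of the list did not all share this order. In high replicate 3 Lyve1 was at its highest, at 105 CPM, and Prox1 at its lowest, at 5.56 CPM. Flt4 was at 62.5 CPM in high replicate 1 and 32.0 CPM in high replicate 3, against 41.7 CPM in low replicate 2. The part of endothelial content in these values was not tested.

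A list of 37 other genes of the chemokine pathway held signalling and regulatory genes of the receptors and the chemokine or chemokine-like ligands Pf4, Ppbp and Mif. Of these, 36 were tested, and edgeR called 0 while DESeq2 called 3 higher (2.15% of all tested genes were), with a median log2 fold change of 0.17. The receptor kinase Grk5 reached 48.4, 103 and 40.7 CPM at high litter size, against 21.8, 20.7 and 25.3 CPM at low litter size (log2 fold change 1.5, SE 0.38, edgeR adjusted p = 0.205). The inhibitory G protein subunit Gnai1 stood at 117, 409 and 75.2 CPM for high litter size and at 15.4, 53.5 and 31.0 CPM for low litter size (log2 fold change 2.59, SE 0.76, edgeR adjusted p = 0.245). The groups were separate for both, with high replicate 3 highest. A list of 22 genes held inducers of chemokines, their receptors and their regulators, and 18 were tested. Of these, edgeR called 0 and DESeq2 called 2 lower (4.08% of all tested genes were), with a median log2 fold change of -0.07. The 2 were Nfkbia, the inhibitor of NF-kappa-B, and Il17ra, a receptor for interleukin 17. Nfkbia measured 61.1, 76.2 and 75.9 CPM at high litter size and 165, 132 and 125 CPM at low litter size (log2 fold change -0.99, SE 0.20, edgeR adjusted p = 0.165). Il17ra reached 26.7, 26.7 and 24.6 CPM at high litter size, against 48.2, 46.4 and 96.7 CPM at low litter size (log2 fold change -1.29, SE 0.32, edgeR adjusted p = 0.203). The high and low libraries did not overlap for either gene.

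Among the remaining cell markers edgeR called 0 in every list. The medians of the log2 fold changes, with the 2 genes of smallest p, were 0.35 for macrophages (Mpeg1 1.11, Itgam -1.85), 0.66 for dendritic cells (Zbtb46 1.02, Itgax 1.27) and 0.39 for T and NK cells (Gzmb 3.15, Gzma 1.51). They were -0.31 for B and plasma cells (Ighm 1.59, Jchain -1.05), -0.11 for neutrophils and 0.64 for eosinophils and mast cells (Kit 1.26, Il5ra -1.17). For ovarian cells they were 0.36 for granulosa (Cyp19a1 -1.58, Fst 0.69), 1.31 for luteal (Scarb1 2.03, Ptgfr 1.83) and 0.11 for oocyte markers (Oog1 0.75, Oosp1 0.47). Stratified epithelium had a median of 4.31, adipocytes 2.40 (Pparg 2.27, Cidea 4.08) and stroma with smooth muscle -0.67 (Actg2 -1.90, Des -1.28).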

How the data were processed

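RNA of 6 libraries, selected for polyadenylated transcripts per the labels' protocols, was compared by labelled litter size, with replicate numbers from the titles. The deposited values are estimated counts per gene, in whole numbers, taken here as rounded kallisto estimates. Per the submitters' processing notes, the tools were Trim Galore, kallisto and DESeq2 and the build was GRCm38. Their versions and the annotation were not found in the labels or headers. Members were found by symbol and gene type in GENCODE M21 (GRCm38), and exon length is the union of annotated exons. The members and gene lists were chosen with earlier results of these data known.

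Genes were kept by filterByExpr (minimum count 10, minimum total 15), scaled by TMM and compared, high minus low litter size, by quasi-likelihood in edgeR 4.0.16 (R 4.3.3). Benjamini-Hochberg adjustment covered all 16455 genes, with a threshold of 0.05. The SE is the absolute log2 fold change divided by the square root of F. Named members were those that passed, those with separate groups and at least 1 CPM, the most abundant per kb of each role and fixed ligand and receptor pairs. Of the other lists the 2 genes of smallest p were named. Ackr2, Ccl24 and the further members and list genes given with values lie outside these rules and were singled out after their values were seen. The counts cover all tested members, but 1 member is not reported here singly or drawn in the figures. DESeq2 1.42.0 and limma 3.58.1 voom were alternatives, beside other scalings, filters and removed libraries. In CPM, 1 count was worth 0.0404 to 0.0568.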

Additional observations from a re-analysis of the deposited data

How the results depend on the processing

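The labels pair no high library with a low one, so no paired analysis was made. Over all genes the number called was 1, and it was 1026 with DESeq2, 631 with the likelihood ratio test, 3 with limma voom, 2 with library size only, 0 without high replicates 1 and 3 and low replicate 2 together, and 0 to 1 when 1 library was left out. Of the chemokine members 0 were called, against 4 with DESeq2 (Ccl11, Ccl7 and Cxcl17 lower, Ackr1 higher) and 3 with the likelihood ratio test (Ccl11, Ccl7 and Cxcl17), and 0 when any 1 library was left out. Of 717 log2 fold changes of the 45 members under 16 other settings, 685 kept their direction and their side of the threshold, 7 also passed it and 25, of 17 members, changed sign. Cxcl1 was 0.387 with limma voom. Without high replicates 1 and 3 and low replicate 2 together, Ccr10 was -0.397, Ccr3 0.536, Ccr9 0.674, Cxcr3 -0.204, Ackr2 -0.219, Ccl5 -0.767 and Cxcl12 -0.143. With 1 library left out, the lowest and highest values were as follows. Ccr2 had -0.148 and 0.352, Ccr3 -0.84 and 0.184, Ccr9 -0.53 and 0.125, Cx3cr1 -0.074 and 0.455, Cxcr6 -1.009 and 0.434, Ackr4 -0.586 and 0.068, Ccl21a -0.127 and 0.888, Ccl2 -0.31 and 0.472, Ccl4 -0.005 and 2.384, Cxcl1 -1.492 and 1.991, Cxcl2 -1.472 and 6.582 and Cxcl5 -3.061 and 5.396. The cause of these differences was not tested. Members under about 10 counts in most libraries, among them Ccr6, Cxcr5 and Ccl19, were too shallow to compare.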
